A study of Mus musculus with 2 samples.

Results

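Osteopontin (Spp1) and one of its receptors, CD44 (Cd44), were followed through 2 single-cell RNA-seq libraries of mouse alveolar organoids. The genes were taken by symbol, and each symbol named 1 row, so 2 of the 27998 genes in the files are described. Alveolar type 2 (AT2) cells carrying the tamoxifen-inducible Sftpc-CreERT2 driver and the R26R-Tomato reporter, from C57BL/6 mice given tamoxifen, were embedded in Matrigel together with cultured stromal cells of the lung, for 2 weeks by the description of the series, although a legend of the study gives a later day. The stromal cells had been selected by the authors as negative for EpCAM, CD31 and CD45. One library came from organoids given PBS (control) and 1 from organoids given IL-1β, an inflammatory cytokine, and both share the strain, the reporter, the tamoxifen and the stromal co-culture. The sources used here do not say whether both came from the same mice. The Sftpc promoter drives recombination in cells that express Sftpc, so the stromal cells carry no lineage label, and the organoids were dissociated whole without a sort.

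Osteopontin is a secreted, heavily phosphorylated glycoprotein that acts both as a part of the matrix and as a soluble ligand. It binds integrins through an arginine-glycine-aspartate motif, and a neighbouring motif exposed by thrombin binds further integrins. CD44 is a transmembrane glycoprotein whose main ligand is the matrix polysaccharide hyaluronan and which also binds osteopontin, and it is made in splice forms with and without variable exons. In lung, osteopontin is best known as a product of macrophages and of activated fibroblasts in injury and fibrosis, and CD44 of leukocytes, fibroblasts and reactive epithelium.

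Spp1 (ENSMUSG00000029304) lies on the plus strand of chromosome 5, at chr5:104435118-104441050 of GRCm38, and GENCODE M21 gives it 7 protein-coding transcripts. The provisional gene model Gm42793 overlaps it on the same strand, so reads of the 2 in their shared stretch cannot be told apart. Cd44 (ENSMUSG00000005087) lies on the minus strand of chromosome 2, at chr2:102811141-102901665, with 8 protein-coding transcripts of 9 to 19 exons. The only gene overlapping it is the small nuclear RNA gene Gm23731, on the other strand. The kit reads transcripts at their 3′ end, so the splice forms of CD44 were not told apart.

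The sequences shown first locate the integrin-binding site and then the starts of both genes. The site lies in the 60 bases of the Spp1 coding sequence at chr5:104439463-104439522, in exon 6 of 7 of transcript Spp1-201. The capitals mark the 3 codons of the arginine-glycine-aspartate motif and, with 0 bases between them, the 7 codons of the neighbouring motif, found by translating the transcript. The promoters are the 250 bases before the RefSeq start of each gene, and for Spp1 before the upstream one of its 2 starts, taken from RefSeq on GRCm38.p6, and are shown because the levels of Spp1 and Cd44 differed in opposite directions between the libraries in stromal cells. Both strands were searched for TGANTCA (the AP-1 motif), TGTGGT (Runx), TATAAA and the kappa B motif, and capitals mark matches. Of 32851 promoters of this length, 6.75%, 14.0%, 12.4% and 3.90% held these motifs. The Spp1 window held 1 TATAAA, 211 to 206 bases before the start, and 1 Runx match on the other strand, 128 to 123 bases before it. The Cd44 window held none of the 4. RefSeq also gives Spp1 a second start, downstream of the first, and the 250 bases before it (chr5:104435942-104436191), not printed here, held none of the 4 either.
Spp1 coding sequence, chr5:104439463-104439522, plus strand: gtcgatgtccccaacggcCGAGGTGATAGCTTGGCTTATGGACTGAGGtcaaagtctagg
Spp1 promoter, chr5:104434861-104435110, plus strand: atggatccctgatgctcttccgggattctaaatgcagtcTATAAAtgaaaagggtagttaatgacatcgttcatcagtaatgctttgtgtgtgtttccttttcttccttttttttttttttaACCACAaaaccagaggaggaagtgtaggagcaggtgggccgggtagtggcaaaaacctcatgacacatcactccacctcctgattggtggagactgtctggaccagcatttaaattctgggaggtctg
Cd44 promoter, chr2:102901666-102901915, minus strand: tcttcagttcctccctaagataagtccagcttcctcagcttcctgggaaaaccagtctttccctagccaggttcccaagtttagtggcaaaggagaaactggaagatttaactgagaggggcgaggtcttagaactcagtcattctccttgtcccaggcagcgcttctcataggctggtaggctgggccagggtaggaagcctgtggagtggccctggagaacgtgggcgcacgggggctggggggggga

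The control library held 2101 barcodes and the IL-1β library 3066, with medians of 14613 and 11496.5 unique molecular identifiers (UMIs) per barcode. After the cell cutoffs of the methods, 5139 cells were analysed, and 11 barcodes occurred in both libraries. Clusters were split into stromal cells (793 control, 475 IL-1β) and epithelial cells (1288 control, 2583 IL-1β), found without Spp1, Cd44 and the genes of 6 lists around them. Stromal cells carried all 7 stromal markers, whose summed level was 5351 counts per 1000000 UMIs (CPM) in control and 9765 CPM in IL-1β stroma, against 112 and 219 CPM in AT2-lineage cells. Epithelial clusters took the names AT2-like, primed AT2-like (pAT2) and cycling (together AT2-lineage), AT1-like (type 1 cells), DATP-like (damage-associated transient progenitors) and airway-like, the last with 9 cells, all of the IL-1β library, and those left unnamed are given as such. The IL-1β AT1-like cells were mostly cluster E4, whose 10 leading genes held 2 AT1 markers and 2 markers of other classes. The 10 AT1 markers summed to 21154 CPM in control and 12354 CPM in IL-1β AT1-like cells, and the 9 DATP markers to 2521 and 3427 CPM, so that the class differed in its make-up between the libraries. The AT2-lineage class held 87 control and 4 IL-1β cells of the cycling cluster E10. Nearly all clusters came from 1 library, and of the 11 stromal clusters only the contractile cluster S5 and cluster S10 held over 10 cells of each. With 1 library per condition cells are not replicates, no test could be made, and the 95% intervals (exact Poisson for CPM, exact binomial for ratios and shares) cover counting error only.

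The stromal cells were the source of nearly all Spp1. They held 95.6% of the Spp1 UMIs of the control library and 93.6% of those of the IL-1β library. In control stroma Spp1 stood at 1596 CPM (1575 to 1617, 21592 UMIs), and in IL-1β stroma at 14949 CPM (14871 to 15027, 141361 UMIs). The ratio of IL-1β over control was 9.37 (9.24 to 9.50). Of 10060 genes with at least 100 UMIs in stromal cells, 3.60% were at least 2-fold higher and 10.4% at least 2-fold lower in the IL-1β library, and Spp1 ranked 47th by its ratio. By UMIs, Spp1 was the 104th gene of control stroma and the 5th of IL-1β stroma, where it made up 1.49% of all UMIs against 0.160%. The median gene was 0.33 lower on the log2 scale in IL-1β stroma, and against this median Spp1 was 11.7 times higher.

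The difference was spread over the stromal cells rather than held by a few of them. A UMI of Spp1 was found in 616 of 793 control stromal cells (77.7%, 74.6 to 80.5) and in all 475 IL-1β stromal cells (99.2 to 100). The median cell held 4 UMIs in control and 134 in IL-1β stroma, and the highest 664 and 5112. Per cell, the tenth percentile, median and ninetieth percentile were 0, 284 and 4769 CPM in control stroma and 1194, 8710 and 38624 CPM in IL-1β stroma. The distributions overlapped at their edges, since 25 control cells (3.15%) stood above the IL-1β median and 12 IL-1β cells (2.53%) below the control median. The median IL-1β AT2-lineage cell had 288 CPM, close to that control median, and 95.5% of those cells had a UMI. Those epithelial values are read below as background. The low end of IL-1β stroma and its share of cells with a UMI are therefore not free of background. Within each library the level ranged widely. The tenth of cells with the highest level held 58.0% of the Spp1 UMIs of control stroma and 36.7% of those of IL-1β stroma, and the cells below the median held 1.98% and 12.3%. The highest single cell held 3.08% and 3.62%. Set against AT2-lineage cells of the same library, 423 of 793 control stromal cells (53.3%, 49.8 to 56.9) and 430 of 475 IL-1β stromal cells (90.5%, 87.5 to 93.0) lay above the 99th percentile, which was 202 CPM in control and 1126 CPM in the IL-1β library. That percentile was taken without 4 control cells that carried macrophage markers, described below. Spp1 CPM hardly followed the depth of a cell, with Spearman correlations across cells of -0.011 in control and -0.042 in IL-1β stroma.

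**Figure D1:**
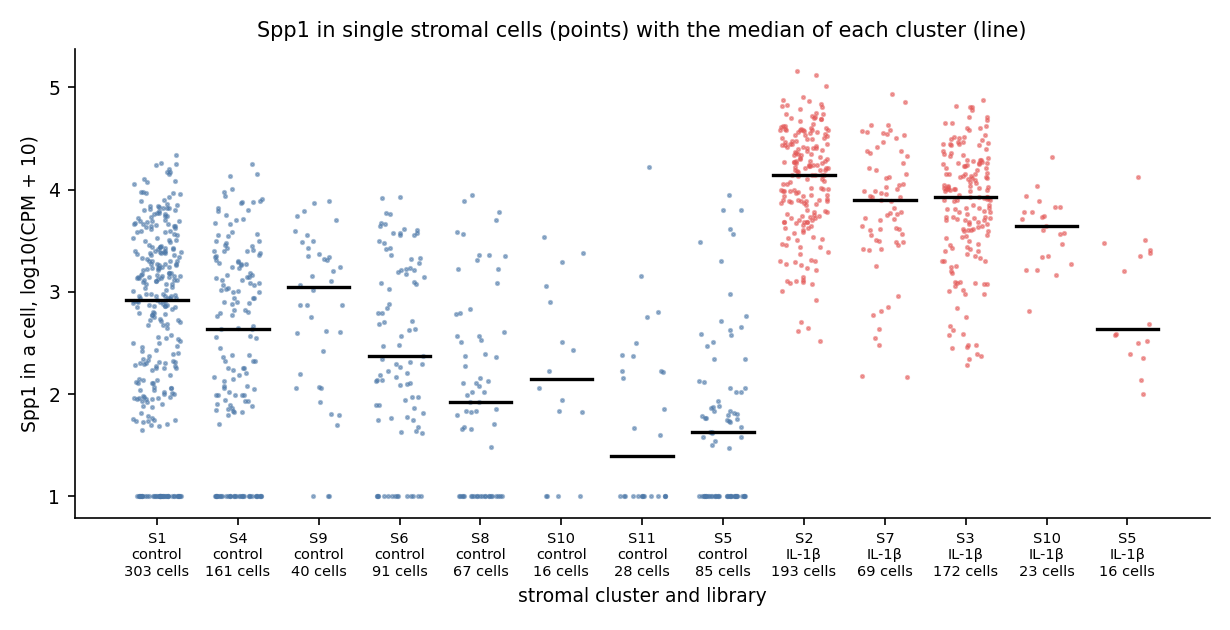
Spp1 in single stromal cells, as log10(CPM + 10), by stromal cluster and library, with clusters of each library ordered by their summed CPM (points, cells; black lines, medians; blue, control; red, IL-1β; cells at 1 have no UMI). Control clusters spread from 0 to a highest cell of 21629 CPM, whereas no IL-1β cell was at 0 and the 3 large IL-1β clusters had medians from 7817 to 14029 CPM.

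By cluster, the highest control cluster stood near the lowest IL-1β cluster. In the IL-1β library, S2 (193 cells, led by Vnn3, Mmp3 and Fut9) had 21994 CPM, S7 (69 cells, led by Mmp10, Il11 and Crabp1) 14741 CPM and S3 (172 cells, led by Mt2, Ndufa4l2 and Ccl8) 14605 CPM. S2 was the shallowest of these, with a median of 7780 UMIs per cell against 28877 in S3. In the control library, S1 (303 cells, led by Dio2, Frmd5 and Dlk1) had 2489 CPM, S4 (161 cells, led by Ptn, Cdkn1c and Ccl11) 1774 CPM and S9 (40 cells, led by the interferon-response genes Isg15, Ifit3 and Ifi44) 1667 CPM. S6 (91 cells, led by Wfdc21, Srgn and Bglap2) had 1164 CPM and S8 (67 cells, led by Nkd2, Col11a1 and Bpgm) 1020 CPM. None of these clusters met the rule for a name. Spp1 was itself among the 10 leading genes of S2 although it was kept out of the clustering. The share of cells above the AT2-lineage limit was 96.9% in S2, 89.5% in S3 and 87.0% in S7, and in control 72.5% in S9, 66.0% in S1, 55.3% in S4, 51.6% in S6 and 35.8% in S8.

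The contractile-like clusters were the lowest of their library, although the intervals of S11 and S10 overlapped in control. S5, with Acta2 among its leading genes, had 397 CPM (371 to 425) in 85 control cells and 2055 CPM (1934 to 2183) in 16 IL-1β cells, and S11 had 423 CPM in 28 control cells. Within S5, which both libraries share, the ratio was 5.17 (4.72 to 5.67), against 9.37 over all stromal cells. In the 16 IL-1β cells of S5, 1 cell held 56.1% of the Spp1 UMIs, and in the 85 control cells 1 cell held 43.1%. The median cell of S5 had 423 CPM in the IL-1β library and 32.7 CPM in control. Both medians lay below the AT2-lineage limits of 1126 and 202 CPM. Above these limits lay 7 of the 16 IL-1β cells (43.75%) and 18 of the 85 control cells (21.2%). S10 was led by epithelial genes such as Slc34a2 and Cldn18 and had 495 CPM in 16 control and 5189 CPM in 23 IL-1β cells. The make-up of the stroma differed between the libraries as well, since the 6 contractile markers summed to 566 CPM in control and 54.6 CPM in IL-1β stroma, with Des and Actg2 at 0 in the latter. The 7 matrix fibroblast markers summed to 983 and 6409 CPM, most of the latter from Dcn, with Tcf21 at 0 in both. The part of this make-up in the Spp1 ratio was not tested beyond S5.

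Markers of other cell types were measured in the stromal cells as well. The 5 epithelial markers summed to 168 CPM in control and 159 CPM in IL-1β stroma, and the 4 pericyte markers to 71.3 and 63.9 CPM. Of the 11 macrophage markers, 10 had a UMI in control stroma, summing to 15.2 CPM, with Marco at 0. In IL-1β stroma 4 had a UMI, summing to 18.3 CPM, of which Cd68 made up 17.0 CPM, and Ptprc, Adgre1, Mrc1, Marco and the 3 C1q genes were at 0. Endothelial markers summed to 2.51 and 33.1 CPM, lymphocyte markers to 2.59 and 2.54 CPM and mesothelial markers to 0.0739 and 0.740 CPM. The endothelial list was the best match of IL-1β cluster S3, with 4 markers up and a mean log2 fold of 1.23 over other stromal cells. S3 had no endothelial marker among its 10 leading genes and so stayed unnamed. It held 76754 of the 141361 Spp1 UMIs of IL-1β stroma. The 6 bone and cartilage markers, named since osteopontin is a bone matrix protein, summed to 47.4 CPM in control and 21.9 CPM in IL-1β stroma, mostly Runx2, at 35.6 and 20.3 CPM. The part of these cell types in the Spp1 ratio was not tested.

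In epithelial cells Spp1 stood at a small share of its stromal level, near that of stromal matrix transcripts, which is read here as free RNA. Free RNA was not measured directly. In the IL-1β library it stood at 302 CPM in AT2-lineage, 308 CPM in AT1-like and 314 CPM in DATP-like cells, and in the control library at 57.1, 40.2 and 21.8 CPM. These values were 2.02%, 2.06% and 2.10% of the stromal level in the IL-1β library and 3.58%, 2.52% and 1.37% in the control library. For comparison, 6 genes of the stromal matrix (Col1a1, Col1a2, Col3a1, Dcn, Lum and Postn) stood at 1.65% to 3.97% of their stromal level in these classes in the IL-1β library and at 1.48% to 4.06% in the control library. Lum set the upper end in both, and in the IL-1β library the others of these 6 genes reached at most 2.69%. The range of these 6 genes is called that of free stromal RNA below. Sparc, compared as well, is not part of it. It stood at 7.66% and 3.91% in control and IL-1β AT2-lineage cells and at 88.1% in control AT1-like cells. A UMI of Spp1 was found in 95.5% of IL-1β and 44.0% of control AT2-lineage cells, at median depths of 11905 and 14375 UMIs, and such shares are read as background and not as expression. Thinned to 4000 UMIs, the shares were 70.9% and 15.04%, against 98.3% and 59.4% in stromal cells.

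**Figure D2:**
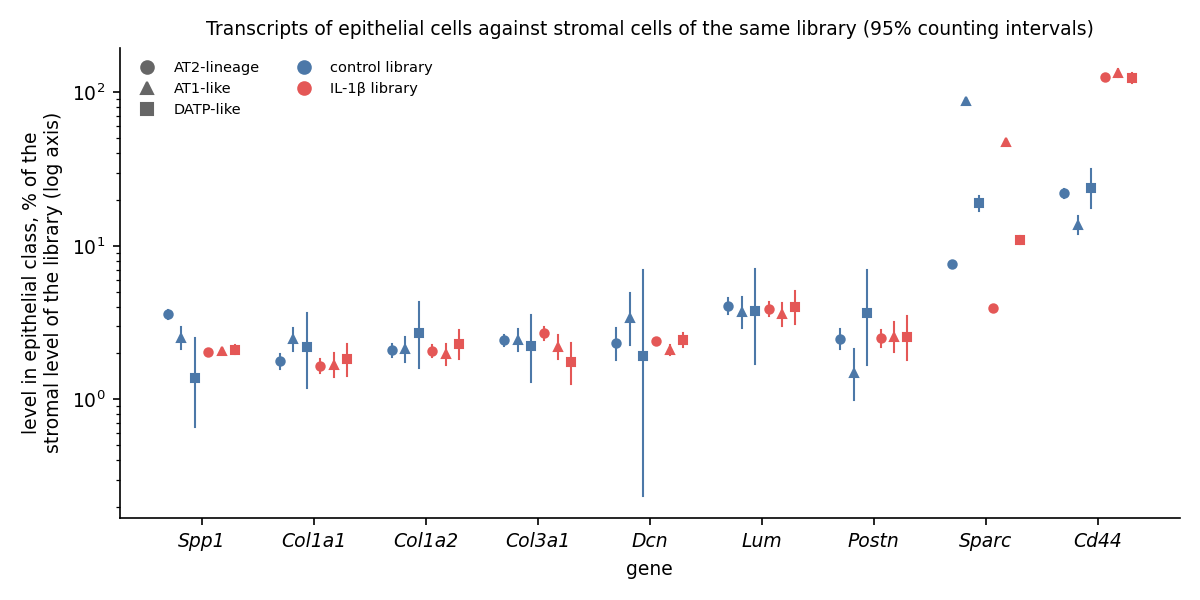
Level of each gene in 3 epithelial classes as a percentage of its level in the stromal cells of the same library, on a log axis (blue, control; red, IL-1β; bars, 95% counting intervals). Spp1 lies among the 6 matrix genes at about 1.37% to 4.06%, whereas Cd44 lies at 13.7% or more in every class and Sparc reaches 88.1% in control AT1-like cells.

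The amount of Spp1 was also set against these matrix transcripts. Per 100 UMIs of Col1a1, Col1a2, Col3a1, Dcn and Lum, the IL-1β library had 148 Spp1 UMIs in stromal, 127 in AT2-lineage, 143 in AT1-like and 132 in DATP-like cells. The control library had 30.2, 46.6, 30.1 and 16.7, the last from 10 UMIs. Of the 770 Spp1 UMIs behind the 46.6 of control AT2-lineage cells, 247 came from the 4 cells with macrophage markers described below. Of these matrix genes Dcn itself was at 227 and 5668 CPM in control and IL-1β stroma. In epithelial cells the ratios of IL-1β over control were 5.30 (4.91 to 5.73) in AT2-lineage and 7.67 (6.49 to 9.12) in AT1-like cells, and these were not read as differences in expression. In AT2-lineage cells 5.62% of 10001 genes were at least 2-fold higher and 3.94% at least 2-fold lower in the IL-1β library, and in AT1-like cells 4.13% and 2.63% of 8019. In the IL-1β library, 5 of 2583 epithelial cells exceeded 2000 CPM of Spp1, with 15 to 130 UMIs, and in these the 5 matrix genes made up 0.0854% to 0.335% of UMIs, against a median of 0.0212% in the other IL-1β epithelial cells. In 2 of these 5 cells the share was over 0.2%, the limit set for an epithelial cell mixed with stroma.

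A group of 4 control cells stood apart. They lay in the cycling cluster E10, carried UMIs of 9 to 11 of the 11 macrophage markers, and held 25, 51, 54 and 117 Spp1 UMIs, 247 of the 770 Spp1 UMIs of all 891 control AT2-lineage cells. Their summed level was 4261 CPM. Their Cd44 counts were 0 or 1 UMI each, and their Sftpc counts 19 to 91. Without them, control AT2-lineage cells had 38.9 CPM of Spp1 (35.7 to 42.4), which is 2.44% of the stromal level, and the ratio was 7.77. No cell of the IL-1β library and no stromal cell carried 5 or more of these markers.

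Cd44 was found in every class, and it was higher in IL-1β than in control epithelium and lower in IL-1β than in control stroma. In AT2-lineage cells it stood at 94.3 CPM (89.2 to 99.6, 891 cells) in control and 352 CPM (343 to 361, 1366 cells) in the IL-1β library, with a ratio of 3.73 (3.51 to 3.97). In AT1-like cells the values were 59.0 CPM (51.5 to 67.3, 262 cells) and 376 CPM (360 to 392, 431 cells), a ratio of 6.36 (5.54 to 7.34). In DATP-like cells they were 102 CPM (75.3 to 136, 47 UMIs in 30 cells) and 347 CPM (325 to 370, 256 cells), a ratio of 3.39 (2.53 to 4.65), where 6.99% of 4190 genes were at least 2-fold higher and 4.99% at least 2-fold lower. Of the genes counted in each class, 98.0% in AT2-lineage, 99.2% in AT1-like and 97.0% in DATP-like cells had a lower ratio than Cd44.

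In stromal cells Cd44 stood at 430 CPM (419 to 441) in control and 281 CPM (271 to 292) in the IL-1β library, with a ratio of 0.654 (0.625 to 0.685), which is short of a 2-fold difference. Against the median gene of these cells the ratio was 0.820, and 25.6% of the genes counted had a lower ratio. At 4.06% and 3.97% of the stromal level, the highest shares of the matrix genes, free stromal RNA would give 17.5 CPM of Cd44 in control and 11.2 CPM in IL-1β epithelium. In the other direction, free epithelial RNA at the stromal share of Sftpc would give 3.64 and 19.5 CPM in stroma and leave 426 and 262 CPM. In the control library the AT2-lineage, AT1-like and DATP-like classes had 13.7% to 23.9% of the stromal level of Cd44, and in the IL-1β library 124% to 134%. The unnamed epithelial cells had 34.6% and 156%. Of the 105 control cells among them, the 96 of cluster E9 held 130 of the 219 Cd44 UMIs, at 97.6 CPM. The other control UMIs came from 8 cells in E3 and 1 in E11, clusters made up mostly of IL-1β cells. The 9 airway-like cells of the IL-1β library had 239 CPM (179 to 312), below the other IL-1β epithelial classes.

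**Figure D3:**
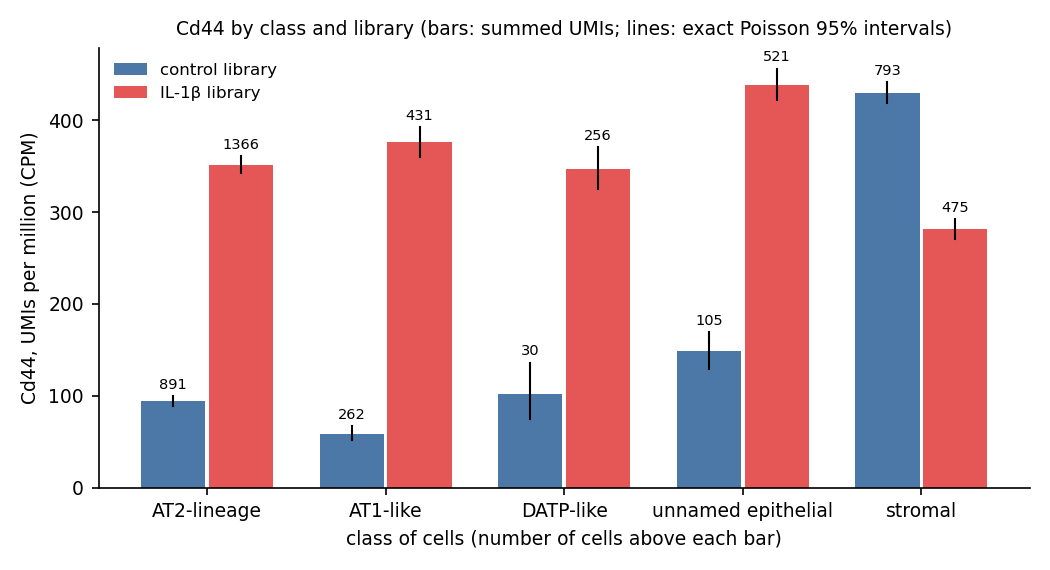
Cd44 in CPM of the summed UMIs of each class (blue, control; red, IL-1β; black lines, exact Poisson 95% intervals; numbers, cells). The 4 epithelial classes drawn stand at 59.0 to 149 CPM in control and 347 to 438 CPM in the IL-1β library, and stromal cells at 430 and 281 CPM. The 149 CPM is that of the unnamed control cells, whose main cluster E9 had 97.6 CPM.

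The shares of cells with a Cd44 UMI went the same way as the levels. They were 65.1% and 95.1% of control and IL-1β AT2-lineage cells, 32.1% and 88.4% of AT1-like cells, 63.3% and 91.8% of DATP-like cells, and 94.1% and 89.7% of stromal cells. At an equal depth of 4000 UMIs they were 30.2% and 73.8%, 13.7% and 68.7%, 23.3% and 72.7%, and 71.0% and 63.6%. The median AT2-lineage cell had 74.5 CPM in control and 323 CPM in the IL-1β library, and the median AT1-like cell 0 and 291 CPM. No class lacked Cd44, so the lowest share, in control AT1-like cells at a median depth of 12307.5 UMIs, is the nearest to a background.

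By cluster, every IL-1β epithelial cluster stood above every control epithelial cluster with at least 10 cells, and the intervals did not overlap. The 5 control epithelial clusters ran from 59.1 CPM (E7, AT1-like) to 114 CPM (E10, cycling), with overlapping intervals among E9 at 97.6, E12 at 102 and E10. Of the 7 IL-1β clusters, 6 ran from 326 CPM (E2, primed AT2-like) to 400 CPM (E5, primed AT2-like), and the intervals of E3 at 386, E4 at 381 and E5 overlapped. Cluster E11, with 34 IL-1β cells led by Ccl20, Serpinb1a and Ccl9 and left unnamed, was the highest at 958 CPM (877 to 1045), with a median of 12 Cd44 UMIs per cell. Its Spp1 level, 292 CPM, was that of the other IL-1β epithelial clusters.

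Among stromal clusters the order was different for Cd44 and Spp1. S6 had the most Cd44, 690 CPM (648 to 734), followed by S9 at 518 and S1 at 500 CPM, whose intervals overlapped. In the IL-1β library S2 had 340, S3 264 and S7 237 CPM. Each lay below S1 and above the contractile-like cluster S11 at 175 CPM (130 to 230), whose interval overlapped that of S7. The control clusters S4 (161 cells) and S8 (67 cells), at 309 and 276 CPM, lay below S2 and above S3 and S7. The intervals of S4 and S2 overlapped, as did those of S8 with S3 and S7. In the shared cluster S5 the values were 404 CPM (377 to 432) in control and 323 CPM (276 to 376) in IL-1β cells, a ratio of 0.8003. In the other shared cluster, S10, the direction was the opposite, with 194 CPM (152 to 244) in 16 control cells and 356 CPM (299 to 421) in 23 IL-1β cells, whose intervals did not overlap. S10 was led by epithelial genes such as Slc34a2 and Cldn18, and AT2-lineage cells had 94.3 and 352 CPM of Cd44. A mixture of stromal and epithelial RNA in S10 was not tested, so its values are not read as stromal alone. Over single stromal cells thinned to equal depth, Spp1 and Cd44 had Spearman correlations of 0.013 in control and -0.055 in the IL-1β library.

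**Figure D4:**
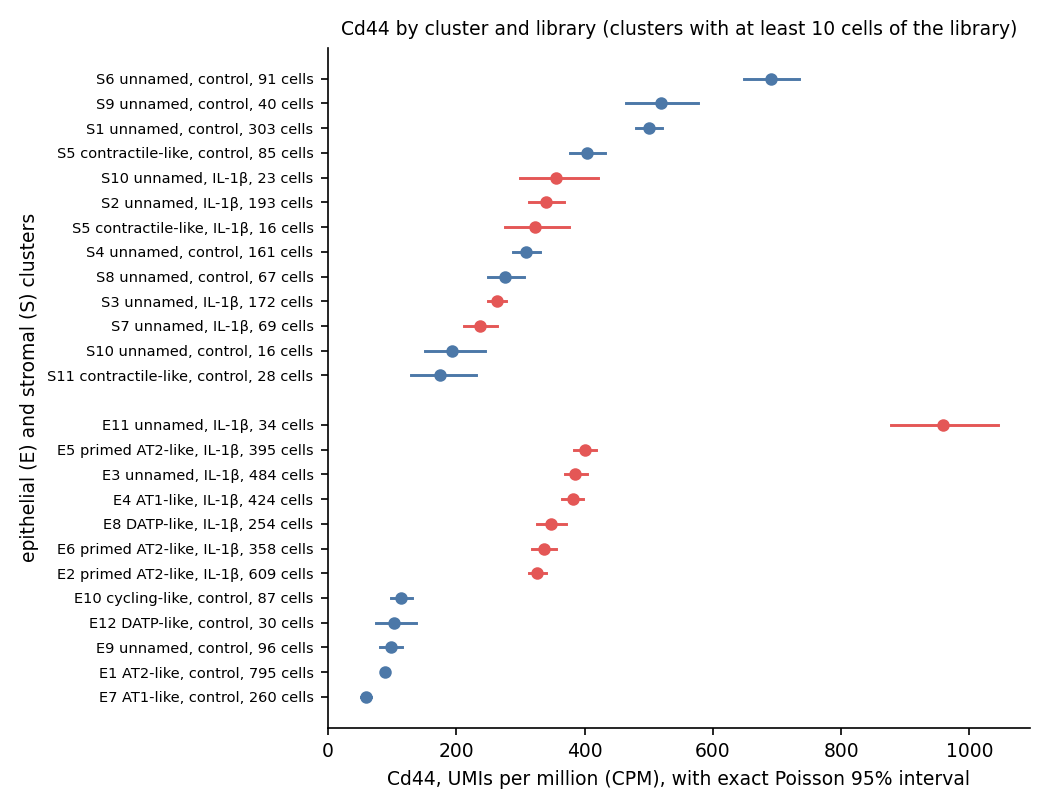
Cd44 in CPM by cluster and library, for clusters with at least 10 cells of the library (points, CPM; lines, exact Poisson 95% intervals; blue, control; red, IL-1β). All 5 control epithelial clusters lie at or under 114 CPM and all 7 IL-1β epithelial clusters at or above 326 CPM, and the stromal clusters of both libraries interleave.

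The 51 genes of the lists cover the osteopontin family, its integrins and processing enzymes, and the metabolism, receptors and partners of hyaluronan and CD44. In stromal cells 33 had at least 100 UMIs, of which 7 were at least 2-fold higher and 4 at least 2-fold lower in the IL-1β library, against 3.60% and 10.4% of all genes counted there, and the median log2 ratio was -0.08 against -0.33 for all genes. In AT2-lineage cells the counts were 6 higher and 1 lower of 26, against 5.62% and 3.94% of all genes. In AT1-like cells they were 5 and 0 of 23, against 4.13% and 2.63%, and in DATP-like cells 7 and 0 of 17, against 6.99% and 4.99%. The list medians were 0.29, 0.01 and 0.44 there, against 0.04, 0.00 and -0.09 for all genes counted. The higher genes of AT2-lineage cells include Spp1, Mmp3, Mmp12 and Mmp14, at 2.02%, 2.70%, 3.14% and 3.69% of their IL-1β stromal levels. Those of AT1-like cells include Spp1, Mmp3 and Mmp12, at 2.06%, 2.68% and 2.87%, and those of DATP-like cells Spp1 and Mmp3, at 2.10% and 2.83%. These shares lie within the range of free stromal RNA, so these genes are not read as differences in expression, nor are the counts that include them. For Mmp14, however, the AT2-lineage share was lower in control, at 2.06%. Its AT2-lineage ratio was 3.15, against 1.75 in stroma, and whether this reflects expression was not tested. The counts also hold Cd44 and Mif in each of these classes, at 49.1% or more of their IL-1β stromal levels. In DATP-like cells they also hold Itgb6, Tgm2 and Mmp14, at 2651%, 163% and 9.20%.

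Of the osteopontin family, Spp1 was the only member with enough UMIs to be counted. Ibsp, Dmp1, Dspp and Mepe, the other family members of bone and tooth, had 0 to 5 UMIs in the stromal cells of either library. Enzymes that cut osteopontin were among the genes with the highest ratios in stroma. Mmp3 had 310 and 11559 CPM, a ratio of 37.3 (36.1 to 38.5), and Mmp9 had 3.10 and 66.9 CPM, a ratio of 21.6 (15.8 to 30.2). Mmp12 had 1 UMI in control and 5893 UMIs (623 CPM) in IL-1β stroma, a ratio of 8432 with an interval of 1513 to 333119. Tgm2, which cross-links osteopontin, had a ratio of 0.564. In AT2-lineage cells of the IL-1β library, Mmp3 and Mmp12 stood at 2.70% and 3.14% of their stromal levels, within the range of the free matrix transcripts. F2, which encodes prothrombin, had 5 and 3 UMIs in stroma, and Mmp7 had 0 and 1.

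Integrins that bind osteopontin differed less. In stromal cells 9 of 10 were counted, 1 was at least 2-fold higher and 1 at least 2-fold lower, against 3.60% and 10.4% of all genes. Itga5, the alpha chain of the classical fibronectin receptor, had 48.8 CPM in control and 107 CPM in IL-1β stroma, a ratio of 2.20 (1.99 to 2.43). Itga8, an alpha chain typical of contractile and interstitial fibroblasts, had 29.6 and 4.44 CPM, a ratio of 0.150 (0.106 to 0.206). Itgb6 and Itga9 had ratios of 0.503 (0.338 to 0.735) and 0.581 (0.452 to 0.743). Stromal Itgb6, at 7.98 and 4.02 CPM, was 2.51% and 1.27% of its AT1-like level. Sftpc was found in stroma at 3.86% and 5.54% of its AT2-lineage level, a share that need not hold for transcripts of AT1-like cells. At that share, free RNA of AT2-lineage cells would give 0.240 and 0.630 CPM of Itgb6. Free RNA of AT1-like cells was not measured apart, so the stromal Itgb6 ratio is not read as a difference in expression. Of the stromal Itga9, at 16.9 and 9.83 CPM, 3.44 and 5.397 CPM would come from free RNA at the Sftpc share. The most abundant chains had ratios of 0.947 for Itgb1, 0.744 for Itgb5 and 1.11 for Itgav. In AT2-lineage cells the 5 chains counted had ratios of 1.02 (Itgb1) to 1.83 (Itgb6), and in AT1-like cells Itgb6, part of the epithelial receptor that also activates TGF-β, had 318 and 317 CPM. In DATP-like cells Itgb6 had 30.5 CPM from 14 UMIs in control and 107 CPM in the IL-1β library, with a ratio of 3.49 (2.05 to 6.46).

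Around CD44 itself, the genes of hyaluronan metabolism that were counted in stroma had ratios from 0.287 to 1.14. Cemip, which binds hyaluronan and takes part in its breakdown, had 188 and 54.1 CPM, a ratio of 0.287 (0.261 to 0.316), and Tmem2, a cell-surface hyaluronidase, 52.5 and 27.0 CPM, a ratio of 0.513. Has2, the main hyaluronan synthase of fibroblasts, had 73 and 45 UMIs and a ratio of 0.882 (0.594 to 1.30). The other synthases had too few UMIs to be counted. Has1 had 7 and 32 UMIs, a ratio of 6.54 (2.84 to 17.6), and Has3 8 and 3 UMIs, a ratio of 0.537 (0.0917 to 2.24). Vcan, the proteoglycan that binds hyaluronan, had 143 and 58.6 CPM, a ratio of 0.411. Tnfaip6, which transfers proteins onto hyaluronan, and the scavenger receptor Stab1 had ratios of 0.725 (0.482 to 1.07) and 0.835 (0.653 to 1.06). Srgn, a proteoglycan that can bind CD44, had 71.2 and 6.24 CPM, a ratio of 0.0876, and it was among the leading genes of control cluster S6. Hmmr, a hyaluronan receptor of dividing cells, was the 1 list gene lower in AT2-lineage cells, with 101 and 11 UMIs, and the cycling cells of this class came nearly all from the control library.

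Of the proteins that work with CD44, Mif and its receptor chain Cd74 form a complex with it. Mif was at least 2-fold higher in all 4 classes, with ratios of 2.13 in stromal, 2.16 in AT2-lineage, 2.41 in AT1-like and 3.58 in DATP-like cells. Cd74, also the invariant chain of MHC class II, was abundant in epithelium, at 5534 and 7687 CPM in AT2-lineage cells, a ratio of 1.39, and had a ratio of 1.79 in AT1-like cells. In stroma it had 270 and 474 CPM, of which free RNA at the Sftpc share would give 214 and 426 CPM, so its stromal ratio of 1.75 is not read as a difference in expression. Ezr, which links CD44 to actin, had a ratio of 2.39 in stroma (14.3 and 34.3 CPM) and 1.202 in AT2-lineage cells (181 and 218 CPM), and free RNA at the Sftpc share would give 7.001 and 12.1 CPM of the stromal level. Msn and Rdx, which do the same, had ratios of 1.10 and 0.561 in stroma and of 0.831 and 1.05 in AT2-lineage cells. Mmp14, which sheds CD44, had 281 and 493 CPM in stroma, and in AT2-lineage cells 2.06% and 3.69% of the stromal level. Both shares lie within the range of free RNA, but of the 6 matrix genes only Lum lay as high as the IL-1β share. In control and IL-1β AT1-like cells Mmp14 stood at 15.9% and 9.85% of the stromal level, and in IL-1β DATP-like cells at 9.20%, above that range. The control DATP-like share of 4.65% rests on few UMIs in 30 cells and is not placed above it. The sheddases Adam10 and Adam17 had ratios of 0.896 and 1.18 in stroma, and the splicing factors Esrp1 and Esrp2, which favour the variable exons of CD44, 1.04 and 0.942 in AT2-lineage cells.

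**Figure D5:**
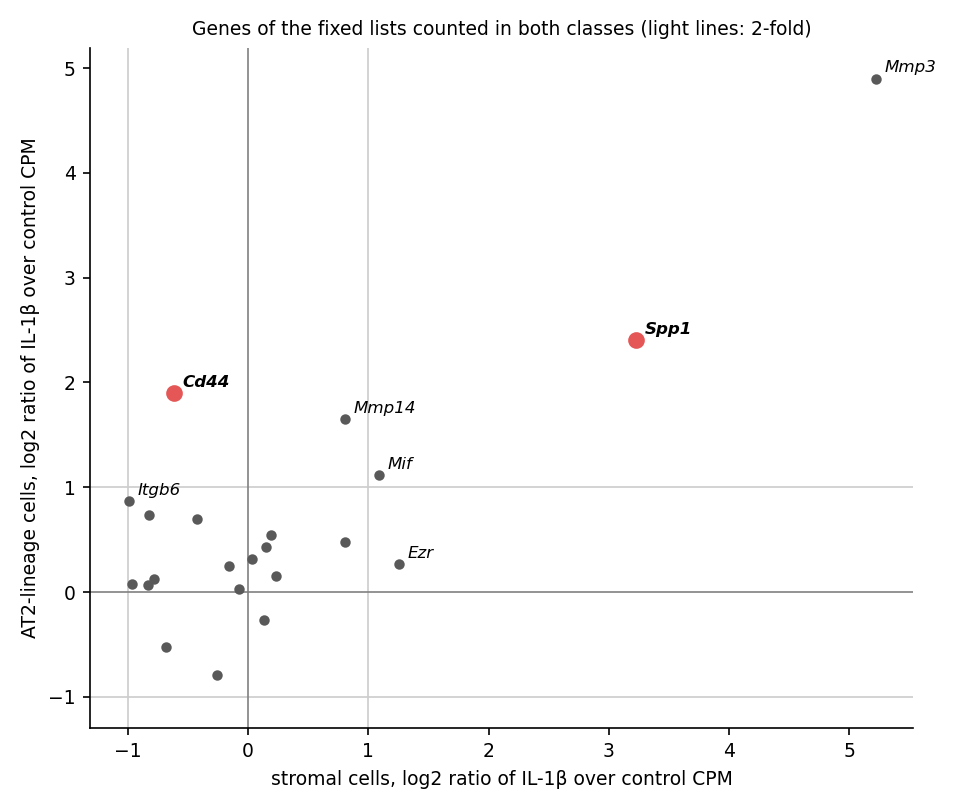
Log2 ratio of IL-1β over control CPM in stromal cells (x axis) and AT2-lineage cells (y axis) for the 22 list genes counted in both classes with at least 10 UMIs in each library (red, Spp1 and Cd44; light lines, 2-fold). Cd44 is the only gene at least 2-fold higher in AT2-lineage cells with a stromal ratio under 1, and Mmp3, Spp1 and Mmp14 stand in AT2-lineage cells at levels within the range of free stromal RNA.

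Profiles over the classes were compared across 10 points, namely the 5 classes of each library with at least 30 cells, which share libraries and free RNA. Among 9258 genes, those most like Spp1 by the Pearson correlation of log2(CPM + 1) were Saa3, Saa1, Igfbp5, Csf3 and S100a8, with r from 0.983 to 0.992. Saa3, an acute-phase serum amyloid, had 10071 and 60438 CPM in control and IL-1β stroma, and Igfbp5 154 and 928 CPM. Those most like Cd44 were the complement gene Cfb, Micall2, Zc3h6, the proteasome gene Psmb1 and the complement gene C3, with r from 0.939 to 0.988. Cfb had 2.37 and 29.1 CPM in control and IL-1β AT2-lineage cells and 34.8 and 17.4 CPM in stroma, the same crossing of directions as Cd44. Micall2, Zc3h6 and Psmb1 crossed as well, but C3 was higher in the IL-1β library in both classes. It had 135 and 568 CPM in AT2-lineage cells and 515 and 696 CPM in stroma. Genes picked for this likeness give no separate support for the pattern of Cd44. Over single stromal cells, genes among the most like Spp1 of 1843 were Serpine2, Ctsl, Mgp and Saa3, with Spearman correlations of 0.226 to 0.264 in control and 0.227 to 0.476 in the IL-1β library. All of these are weak apart from that of Ctsl in the IL-1β library, at 0.476.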

How the data were processed

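Raw UMI counts per gene and cell were deposited by the authors, who made them with Cell Ranger on GRCm38 (the submitters' processing notes also name mm9 and Scanpy 1.3.6). Barcodes with over 500 and under 7000 genes and over 2000 UMIs were kept. Scrublet, run per library, marked 3 of 5142 cells (0.0583%), under the 0.5% at which a caller is regarded as having worked, so doublets remain. Counts were scaled to 10000 per cell, log-transformed, and clustered by Leiden on 15 nearest neighbors in 50 principal components at resolution 1.0 (scanpy 1.11.5, leidenalg 0.10.2), first in all cells and then within 1363 epithelial and 2157 stromal genes, without the 51 list genes. A cluster took the name of the marker list with the highest mean log2 fold (pseudocount 0.1), if at least 3 markers were up, the mean was at least 0.25 and no other list led its top 10 genes. Stromal and cycling names also needed an own marker in the top 10. That rule was written with the clusters already known. CPM are UMIs summed over a class per 1000000 UMIs, ratios are IL-1β over control, and genes with at least 100 UMIs in a class were counted. Genes were named from each list if among the 4 with the largest log2 ratio in size, or the 3 with the highest CPM, of those counted in a class. The 5 most alike genes and leading genes among the 5 of highest fold in a cluster were also named, except 1 gene that is not reported here. F2, Mmp7, Has1, Has3, Adam10, Adam17, Esrp1, Esrp2, Msn, Rdx and the other osteopontin family members were named after their values had been seen. So were Acta2 as a leading gene of S5 and Spp1 as one of S2. The code for ratios and intervals was tested on simulated data. The members and lists were chosen with earlier results of these data known. The culture time printed is that of the series' description, and the legend of the study gives a later one.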

Additional observations from a re-analysis of the deposited data

Results flagged for a closer look

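Genes of the lists were looked at again where the ratio of IL-1β over control lay on opposite sides of 1 in stromal and in AT2-lineage cells, with both counting intervals clear of 1. With 1 library per condition the difference between the classes was not tested. Cd44 had a ratio of 0.654 in stromal and 3.73 in AT2-lineage cells. Against the median gene of each class these were 0.820 and 3.63. Among the integrins, Itga9 had 0.581 and 1.09, Itgb5 0.744 and 1.62, and Itgb6 0.503 and 1.83. AT2-lineage Itgb5, at 6.15 and 9.95 CPM, was 2.84% and 6.16% of its stromal level in control and IL-1β cells. The control share lies within the range of free stromal RNA, so the AT2-lineage ratio of Itgb5 is not read as a difference in expression. Stromal Itgb6 was 2.51% and 1.27% of its AT1-like level in control and IL-1β cells. Free RNA of AT1-like cells was not measured apart, so its stromal ratio is not read as a difference in expression. Of stromal Itga9, free RNA at the share of Sftpc would give 3.44 of 16.9 CPM in control and 5.397 of 9.83 CPM in IL-1β cells. Tgm2 had 0.564 and 1.67. Msn went the other way, with 1.10 in stromal and 0.831 in AT2-lineage cells. Since the median gene was 0.33 lower on the log2 scale in IL-1β stroma and 0.04 higher in IL-1β AT2-lineage cells, small differences of this kind lie near the shift between the classes. Stromal and AT2-lineage cells are made of different clusters in the 2 libraries, S1, S4 and S6 against S2, S3 and S7, and E1 against E2, E5 and E6. In S10, which both libraries share, Cd44 was higher in the IL-1β cells, at 356 against 194 CPM, but S10 was led by epithelial genes. In S5, also shared, Cd44 was lower in the IL-1β cells, at 323 against 404 CPM.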

How the results depend on the processing

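No paired analysis was possible because each condition has 1 library. No ratio changed direction under any alternative run. Spp1 in stroma had ratios of 9.05 without the top 5% of scrublet scores, 9.96 as the mean of per-cell CPM, 9.87 at 4000 UMIs per cell, 9.09 over all deposited barcodes and 5.17 in cluster S5 alone. In AT2-lineage cells it had 7.99 and 8.16 at resolutions 0.5 and 2.0, 8.31 with libraries clustered separately, 7.79 with list genes kept in clustering, 7.70 over all barcodes and 7.77 without macrophage-marker cells, and in AT1-like cells 5.90 at 4000 UMIs and 15.4 over all barcodes. Cd44 in stroma had 0.712 at 4000 UMIs, 0.8003 in S5 alone and 0.614 after free RNA was taken off. In AT2-lineage cells it had 3.23 with separate clustering and 3.47 without surfactant, mitochondrial, ribosomal and Spp1 UMIs, in AT1-like cells 7.66 without the top scrublet scores, 9.36 as the mean of per-cell CPM and 8.45 at 4000 UMIs, and in DATP-like cells 2.42 over all barcodes. The 48 highest IL-1β stromal cells, or their equal share of those left, held 37.7% of Spp1 UMIs at 4000 UMIs, 36.2% without the top scrublet scores and 36.03% without stromal cells over 1% Sftpc. At 4000 UMIs a Spp1 UMI was found in 59.4% and 98.3% of control and IL-1β stromal, 15.04% and 70.9% of AT2-lineage, 20.2% and 72.2% of AT1-like and 70.3% of IL-1β DATP-like cells, and a Cd44 UMI in 71.0% and 63.6%, 30.2% and 73.8%, 13.7% and 68.7%, and 23.3% and 72.7%. With every list gene counted that had a UMI, 15 of 49 were higher and 6 lower in stroma, and 14 and 6 of 46 in AT2-lineage cells. The counts were 11 and 8 of 43 in AT1-like and 14 and 6 of 35 in DATP-like cells. The share over all genes was not taken at that limit, so these counts are not read as a result about the lists. Without macrophage-marker cells, control AT2-lineage Spp1 was 2.44% of the stromal level. Of 127 comparisons with an alternative, 79 stayed within the interval or 1.5 times the count of the value reported. DATP-like cells gave no ratio at resolutions 0.5 and 2.0 and by Louvain, which left 0 to 2 control cells, and AT1-like cells none by Louvain, which left 6 IL-1β cells. Macrophage-marker cells, free RNA and S5 were chosen after seeing the data. The cause of these differences was not tested. Counting error is small for Spp1 in stroma but not for control DATP-like cells, with 10 Spp1 and 47 Cd44 UMIs.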
